A study of Rattus norvegicus with 22 samples.

Results

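The synaptic vesicle and its release machinery were followed in identified neurons of the neonatal rat spinal cord through 10 genes, namely Snap25, Syt1, Syt2, Syn1, Syn2, Sv2a, Sv2b, Stx1a, Vamp1 and Vamp2. Members were all probe sets whose gene symbol in the platform annotation is one of these names. Of the 1050 probe sets in the data, 10 met this rule, and they stand for 6 of the 10 genes: 4 probe sets for Snap25, 2 for Syn2 and 1 each for Syt2, Sv2a, Syn1 and Stx1a. Syt1, Sv2b, Vamp1 and Vamp2 were not analysed here. Probe sets of 1 gene measure the same arrays and are not replicates of each other.

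The arrays were Affymetrix RN_U34 chips, each hybridized with amplified RNA of laser microdissected cells from 1 Wistar rat of postnatal day 0 to 4. Descending commissural interneurons (dCINs, CIN in the sample labels) had taken up the tracer rhodamine dextran from a cut through one side of the cord below them, and motor neurons (MNs) had taken it up from the cut ventral root. The third group, MIX, was a random sample of ventral horn cells, which can hold both of these cell types. There were 7 dCIN, 7 MN and 8 MIX arrays, from 50 to 100, 55 to 250 and 95 to 187 cells each. No animal was treated or carried a transgene. The cords with labelled dCINs or MNs had been cut and incubated before freezing. For MIX the study describes only random dissection of cells from the ventral part of cord sections. In such pooled cells, fewer cells of a type and less RNA per cell cannot be told apart.

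Transmitter is stored in vesicles and released when a vesicle fuses with the terminal membrane. Fusion is driven by SNARE proteins: Vamp1 and Vamp2 sit on the vesicle, while Stx1a (syntaxin 1A) and Snap25 sit on the plasma membrane. Syt1 and Syt2 (synaptotagmins) are the calcium sensors that trigger fast fusion, Syn1 and Syn2 (synapsins) tether the reserve pool of vesicles, and Sv2a and Sv2b are vesicle membrane glycoproteins. Motor neurons release acetylcholine at the muscle, and commissural interneurons carry inhibitory or excitatory signals to the other side of the cord. The dissected tissue held the cell bodies, so transcripts were measured and not the proteins of the terminals.

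Values are Li-Wong signals, a model-based summary of the probes of a set on a linear scale. Differences were tested on the log2 scale with limma, with p-values adjusted by Benjamini and Hochberg's method across the 1050 probe sets, and an adjusted p below 0.1 is a call. Signals of marker genes are given beside the labels of the groups. The 11 probe sets of MN markers summed to signals of 19559 to 22101 in MNs, 12771 to 19020 in MIX and 7237 to 11363 in dCINs. Of these markers, the study listed Slc18a3, Calcb, Nefl, Nefh, Ngfr and Sncg as higher in MNs on these same arrays. The MN marker sums are therefore not an independent check of the labels. Slc32a1, the vesicular transporter for GABA and glycine, was the only inhibitory interneuron marker measured. The 6 astrocyte probe sets summed to 827 to 1456 in MNs, 1127 to 2020 in dCINs and 916 to 1982 in MIX. Most of this sum was S100b, with medians of 765 in MNs, 1085 in dCINs and 1227 in MIX. The Slc1a2 and Slc1a3 sets had group medians of 30.9 to 91.5 and overlapped between groups. None of the 6 was called in any comparison, and the part of glial RNA in the results below was not tested. No probe set carried the symbol Gfap in the annotation used here, so Gfap is not in this sum. The study itself reported low Gfap and Mbp signals on these arrays, without change between MNs and dCINs, and proposed that glial contamination was minimal. The first arrays of each group stood apart. On arrays numbered 1 and 2 the log2 ratio of the 3' to the 5' beta-actin control signal, a measure of how far the amplified RNA reaches towards the 5' end, was 1.60 to 2.32. On the remaining 16 arrays it was 2.60 to 4.18. MN arrays 1 and 2 also came from the largest samples, with 250 and 230 cells.

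Of the 10 probe sets, 3 were called different between dCINs and MNs. The study's own list of the most differentially expressed genes on these arrays holds all 3. The members were chosen with earlier results of these data known, so this count is not an independent result. Sv2a was higher in dCINs, Syt2 and the M27925_at probe set of Syn2 were higher in MNs, and the 7 probe sets of Snap25, Stx1a, Syn1 and the second Syn2 set were not called. Over all 1050 probe sets, 3.81% were called in this comparison, 2.38% with a higher signal in dCINs and 1.43% with a lower one. In MIX the same 3 probe sets lay near the dCIN level.

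The genes with a called difference are shown by the 100 bases before their RefSeq start (GRCr8), because Syn2 and Syt2 were both higher in MNs and Sv2a was higher in dCINs. Capitals mark GGGCGG, the GC box bound by Sp1-type factors, on either strand.
Sv2a, chr2:186430263-186430362, plus strand: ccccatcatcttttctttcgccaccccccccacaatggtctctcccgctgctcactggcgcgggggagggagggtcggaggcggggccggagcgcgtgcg
Syn2, chr4:149858819-149858918, plus strand: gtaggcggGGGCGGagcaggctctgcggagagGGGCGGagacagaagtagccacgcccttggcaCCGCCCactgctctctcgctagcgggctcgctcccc
Syt2, chr13:48737022-48737121, plus strand: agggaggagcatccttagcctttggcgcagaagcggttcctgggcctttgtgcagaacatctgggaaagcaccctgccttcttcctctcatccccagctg
The Syn2 stretch held 3 GC boxes, and the Sv2a and Syt2 stretches held none. The G and C content was 71% for Sv2a, 72% for Syn2 and 58% for Syt2. In windows of 300 bases (250 before the start and 50 after it), 33.1% of all 33469 RefSeq promoters held a GC box. Of the 9 member genes with an entry, 6 did (Stx1a, Syn1, Syn2, Syt1, Vamp1 and Vamp2). The cyclic AMP response element TGACGTCA, searched likewise, was in the windows of Syn1 and Vamp1 and in 1.83% of all windows. The TATA box letters TATAAA were in none of the 9 and in 14.2% of all. A match is a description of the letters only.

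Syt2, a calcium sensor for fast release, showed the smallest p of the members. Its probe set M64488_at had signals of 51.1, 57.0 and 69.4 (lowest, median and highest) in the 7 dCIN arrays and of 70.0, 88.6 and 121 in the 7 MN arrays. The highest dCIN array was number 1 and the lowest MN array was number 3, and the groups did not overlap. This was the only member without overlap between dCINs and MNs, against 1.62% of all probe sets. The log2 difference, dCIN minus MN, was -0.64 (SE 0.11, 95% interval -0.89 to -0.40, limma adjusted p = 0.0033), a level 1.56-fold higher in MNs. The exact two-sided permutation test over arrays gave p = 0.00058, the smallest it can give with 7 arrays a group. The difference was -0.80 within arrays 1 and 2 and -0.58 within arrays 3 to 7, and the call held with each of the 14 arrays left out.

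In MIX, Syt2 signals were 37.9, 60.1 and 95.8. The 8 arrays spread more widely than either labelled group, from below every dCIN array to within the MN range, and the highest was MIX array 1. MIX was lower than MNs by a log2 difference of -0.64 (SE 0.16, limma adjusted p = 0.0953), and did not separate from dCINs (difference 0.01, 95% interval -0.32 to 0.33). By limma the order of levels was therefore MN first, with MIX and dCINs not apart beyond their spread. The MIX and MN groups overlapped, and of the 15 omissions of 1 array the call held only without MIX array 1, 2 or 7 or MN array 3, with adjusted p up to 0.23. The call was also lost without the MN samples of over 200 cells (-0.56, limma adjusted p = 0.330) and with only the MIX and MN arrays fitted (limma adjusted p = 0.215). The exact permutation test gave p = 0.0051 for this probe set alone and 0.352 after adjustment over all probe sets.

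Sv2a, a glycoprotein found on vesicles of most neurons, had the largest difference of the members. Probe set L05435_at had signals of 124, 410 and 875 in dCINs and of 58.7, 170 and 247 in MNs. The highest dCIN arrays were numbers 4, 5 and 6, and dCIN arrays 1 and 2, at 233 and 124, lay within the MN range. The log2 difference, dCIN minus MN, was 1.55 (SE 0.43, 95% interval 0.65 to 2.46, limma adjusted p = 0.0718), a level 2.94-fold higher in dCINs. The exact permutation test gave p = 0.0093 for this probe set alone and 0.188 after adjustment over all 1050 probe sets.

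The array number moved with this result. Within arrays 3 to 7, the 5 dCIN signals ran from 372 to 875 and the 5 MN signals from 58.7 to 247, with no overlap and a log2 difference of 2.21 (limma adjusted p = 0.0050). Within arrays 1 and 2, MNs had 193 and 170, and the difference of the means was -0.09. Whether the difference itself changed between these array sets was not tested. With the beta-actin ratio as a covariate, added after the data were seen, the difference was 1.55 (limma adjusted p = 0.0480). Among arrays 3 to 7, 3 of the 10 member probe sets had groups without overlap (Sv2a, Syt2 and Syn2 M27925_at), against 4.57% of all probe sets. These 3 were also the ones called above, so this count is not independent of that one. The Sv2a call was lost when dCIN array 3, 4, 5, 6 or 7 or MN array 5, 6 or 7 was left out, with differences of 1.34 to 1.84 over the 14 omissions and adjusted p up to 0.169.

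Sv2a in MIX ran from 115 through a median of 394 to 754. The lowest was MIX array 1, inside the MN range, and the 6 arrays numbered 3 and up had 249.5 to 754, just above the highest MN array of 247. The log2 difference, MIX minus MN, was 1.45 (SE 0.43, limma adjusted p = 0.191), which was not called. It was called among arrays numbered 3 and up (1.92, limma adjusted p = 0.0187), with array weights (1.71, 0.0357) and without MIX array 1 (1.69, 0.0875). MIX and dCINs differed by -0.11, with a 95% interval of -1.0 to 0.78. The order of medians was dCIN, MIX and MN, with dCIN and MIX not apart beyond their spread.

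**Figure D1:**
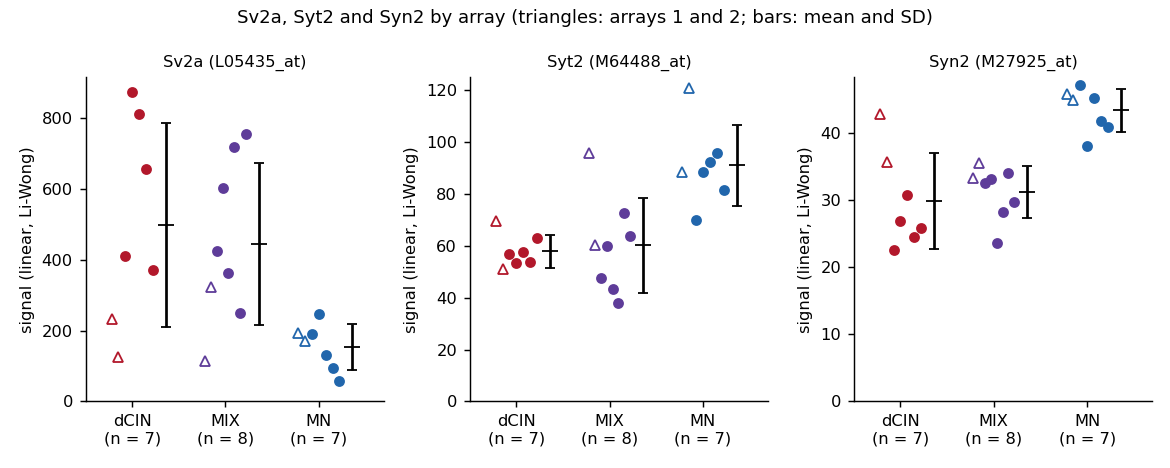
Li-Wong signal (linear scale, axes from 0) of the Sv2a, Syt2 and Syn2 probe sets called between dCINs and MNs, one symbol per array. Triangles are arrays 1 and 2 of each group, circles the others, and bars the mean and SD of the group. All 7 MN arrays of Syt2 lie at or above 70.0 and all 7 dCIN arrays at or below 69.4. For Sv2a the dCIN triangles, at 233 and 124, fall among the MN values.

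Syn2 and Syn1 encode synapsins, phosphoproteins on the vesicle surface, and their probe sets behaved differently. The Syn2 set M27925_at had signals of 22.5, 26.8 and 42.7 in dCINs and of 38.0, 44.8 and 47.0 in MNs. These lay below the median signal of the array on 7 of 7 dCIN and 6 of 7 MN arrays. Only dCIN array 1, at 42.7, reached into the MN range. The log2 difference, dCIN minus MN, was -0.57 (SE 0.13, 95% interval -0.85 to -0.29, limma adjusted p = 0.0236), a level 1.48-fold higher in MNs, with an exact permutation p = 0.0023. Within arrays 3 to 7 the difference was -0.71 and within arrays 1 and 2 it was -0.21, and the call held with each of the 14 arrays left out.

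In MIX this Syn2 set had 23.5, 32.8 and 35.4, with every array below the lowest MN array. It was the only member whose MIX and MN arrays did not overlap, against 0.19% of all probe sets. The log2 difference, MIX minus MN, was -0.48 (SE 0.12, limma adjusted p = 0.0970), and MIX minus dCIN was 0.09 (95% interval -0.16 to 0.34). Of the 15 omissions of 1 array the call against MNs held only without MIX array 2 or 7, with adjusted p up to 0.23, although the difference stayed between -0.51 and -0.42. It was also lost with the array number as a block (-0.47, limma adjusted p = 0.123) and without the MN samples of over 200 cells (-0.45, 0.330). The signals are low, and this set fell below a mean log2 value of 6, as did 5 of the 10 member probe sets. With an offset of 32 added before the log2, its differences shrank to -0.29 for dCIN minus MN and -0.25 for MIX minus MN, both still called (limma adjusted p = 0.0252 and 0.0714).

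The second Syn2 set, rc_AI145494_g_at, was also dim and was not called. Its signals were 16.2, 21.3 and 28.0 in dCINs, 17.4, 22.0 and 29.9 in MNs and 18.3, 21.5 and 29.3 in MIX, with wide overlap. Its log2 difference, dCIN minus MN, was -0.13 (95% interval -0.45 to 0.18), so the probe sets of Syn2 did not both show the difference. Syn1, by M27812_at, had 68.6, 84.1 and 93.3 in dCINs, 59.9, 74.2 and 84.2 in MNs and 58.3, 71.3 and 85.3 in MIX. The Syn1 groups overlapped, and the log2 difference, dCIN minus MN, was 0.17 (SE 0.10, 95% interval -0.05 to 0.40, limma adjusted p = 0.627).

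The synapsins were also compared within each array, where differences in scale between arrays drop out. The log2 of Syn1 (M27812_at) over Syn2 (M27925_at) was 1.13 to 1.70 in dCINs (mean 1.48 ± 0.21, SD, n = 7), 0.78 to 1.72 in MIX (1.20 ± 0.29, n = 8) and 0.35 to 1.02 in MNs (0.74 ± 0.25, n = 7). No dCIN array overlapped an MN array. Only the differences are of use here, since signals of separate probe sets are not on a common scale. The dCIN mean exceeded the MN mean by 0.74 on the log2 scale (exact two-sided permutation p = 0.00058, the smallest possible, 0.0035 after adjustment over the 6 tests of this family). MIX exceeded MNs by 0.46 (exact permutation p = 0.0045, adjusted 0.0135) and differed from dCINs by -0.28 (exact permutation p = 0.0575). This ratio contains the Syn2 difference given above and is not independent of it. With an offset of 32 the difference between dCINs and MNs was 0.41 (exact permutation p = 0.00058). With the second Syn2 set the ratio differed by 0.31 between dCINs and MNs (exact permutation p = 0.14). Of the 4 planned pairs of related genes, this was the only one with both genes measured.

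**Figure D2:**
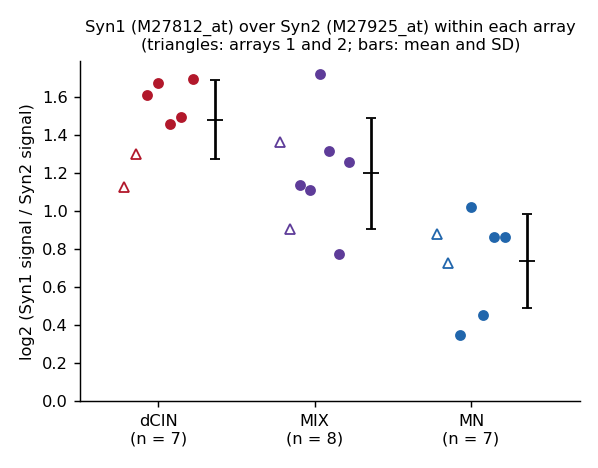
Log2 ratio of the Syn1 to the Syn2 (M27925_at) signal within each array, by group. Triangles are arrays 1 and 2, circles the other arrays, and bars the mean and SD. The dCIN arrays, from 1.13 to 1.70, lie above the MN arrays, from 0.35 to 1.02, and MIX arrays span both.

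Snap25, a plasma membrane SNARE, had 4 probe sets, none of them called. One of them, AB003991_at, had 79.9, 121 and 236 in dCINs, 99.9, 110 and 397 in MNs and 83.6, 106 and 129 in MIX. MN arrays 1 and 2 stood far above the others at 397 and 383, while the 5 further MN arrays lay between 99.9 and 112. Arrays 1 and 2 were also the highest of the dCINs, at 236 and 140. The log2 difference, dCIN minus MN, was -0.36 (SE 0.36, 95% interval -1.13 to 0.40, limma adjusted p = 0.732). It was -1.10 within arrays 1 and 2 and -0.07 within arrays 3 to 7.

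The other Snap25 sets were dim and did not follow AB003991_at. AB003991_g_at had 26.7, 30.0 and 54.0 in dCINs, 27.7, 30.3 and 32.7 in MNs and 27.6, 32.2 and 39.3 in MIX. AB003992_s_at had 14.3, 18.6 and 38.2 in dCINs, 12.4, 17.3 and 21.2 in MNs and 13.2, 15.4 and 21.5 in MIX. dCIN array 7 was the highest dCIN array on both of these sets and the lowest on AB003991_at. U56261_s_at had 14.7, 18.0 and 20.2 in dCINs, 14, 18.2 and 23.0 in MNs and 16.1, 18.3 and 22.5 in MIX. Between dCINs and MNs the log2 differences of these 3 sets were 0.09, 0.20 and -0.04, and all groups overlapped.

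Stx1a, the partner of Snap25 on the plasma membrane, was measured by D12519_s_at with 74.2, 102 and 116 in dCINs, 77.6, 89.5 and 173 in MNs and 76.8, 88.8 and 93.2 in MIX. As with Snap25, MN arrays 1 and 2 were the highest of all arrays, at 146 and 173, and the 5 further MN arrays ran from 77.6 to 91.2. The log2 difference, dCIN minus MN, was -0.10 (SE 0.18, 95% interval -0.48 to 0.28, limma adjusted p = 0.856). It was -0.69 within arrays 1 and 2 and 0.14 within arrays 3 to 7. MN arrays 1 and 2 had both the largest cell numbers and a low beta-actin ratio, and the part of either in the Snap25 and Stx1a signals was not tested. Snap25 AB003991_at was lower in MIX than in MNs by a log2 difference of -0.62 (95% interval -1.23 to -0.007). This was not called (limma adjusted p = 0.412). The difference was -1.73 within arrays 1 and 2 and -0.16 among arrays numbered 3 and up. For Snap25 AB003991_at, Stx1a and Syn1, no difference between the 3 groups was called in the main fits.

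**Figure D3:**
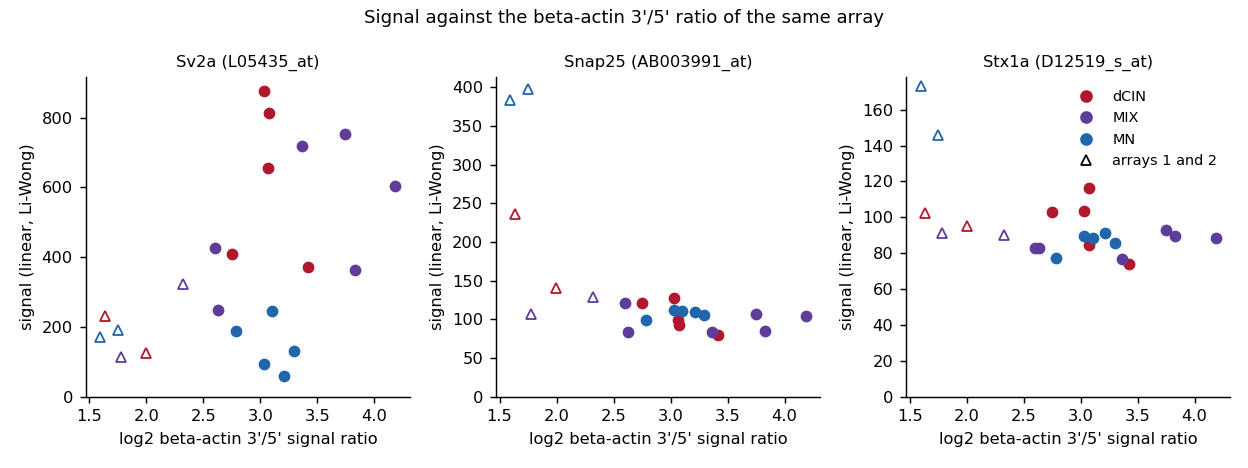
Signal (linear scale, from 0) of Sv2a, Snap25 (AB003991_at) and Stx1a against the log2 ratio of 3' to 5' beta-actin signal of the same array, for dCINs, MIX and MNs. Triangles are arrays 1 and 2, which hold the lowest ratios (1.60 to 2.32). MN arrays 1 and 2 have the highest Snap25 (397 and 383) and Stx1a (146 and 173) signals, and the highest Sv2a signal on any array numbered 1 or 2 is 323.

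**Figure D4:**
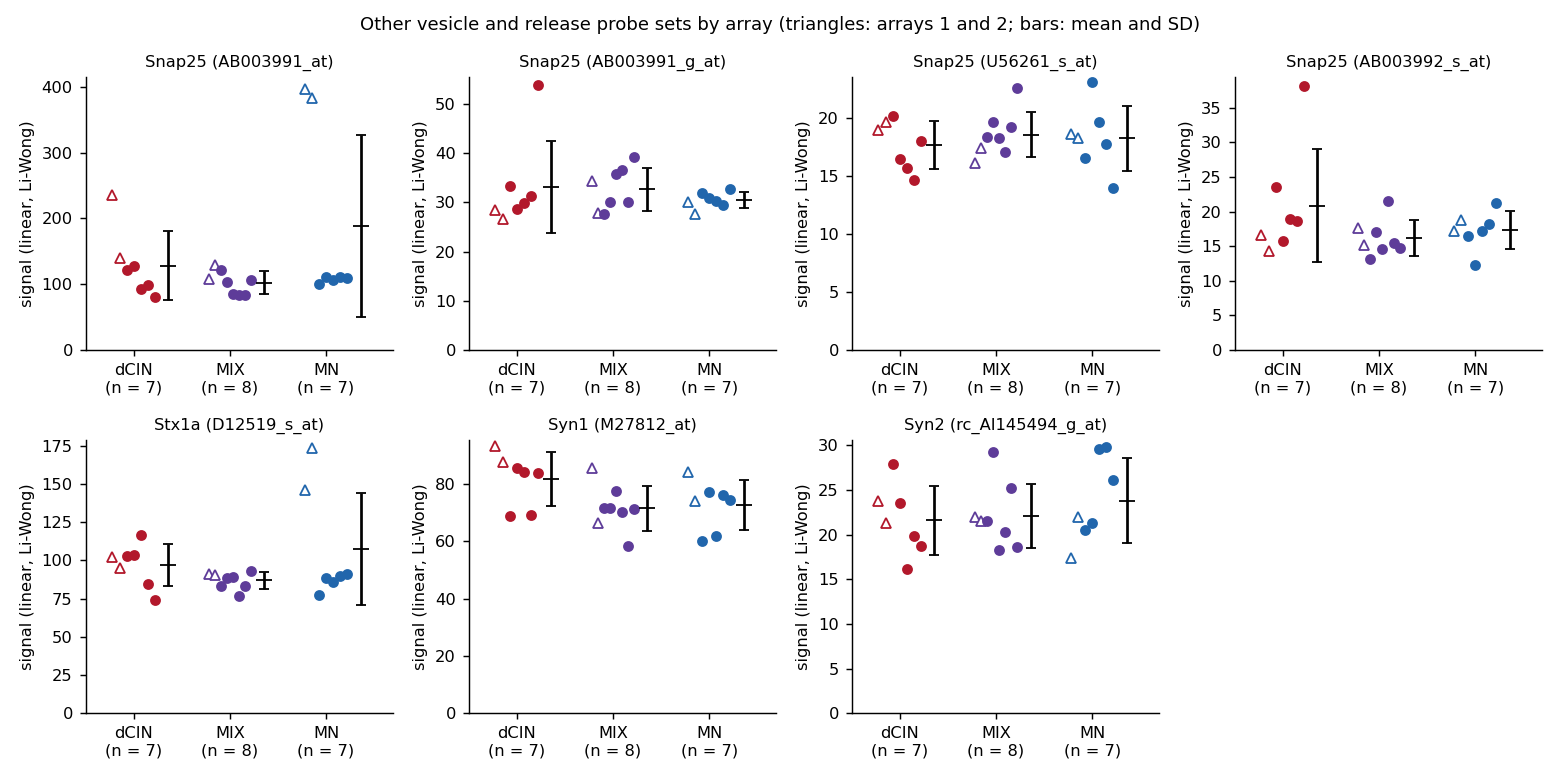
Li-Wong signal (linear scale, from 0) of the 7 member probe sets not called between dCINs and MNs, one symbol per array, with triangles for arrays 1 and 2 and bars for the mean and SD. Groups overlap in every panel, and the wide MN bars of Snap25 AB003991_at and Stx1a come from arrays 1 and 2.

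Against MNs, MIX showed 2 of the 10 members called, Syt2 and Syn2 M27925_at, both lower in MIX. Of all probe sets 0.952% were called in this comparison, 0.667% with a lower signal in MIX. An unadjusted limma p under 0.05 was found for 4 of the 10 members, against 124 of all 1050 probe sets. Against dCINs none of the 10 members was called by limma, none had an unadjusted p under 0.05 and none was called by the exact permutation test adjusted over all probe sets, where 0.476% of all probe sets were called by limma. No member separated MIX from dCINs without overlap, against 0.19% of all. Both MN comparisons share the MN arrays, so their members' values are not independent.

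**Figure D5:**
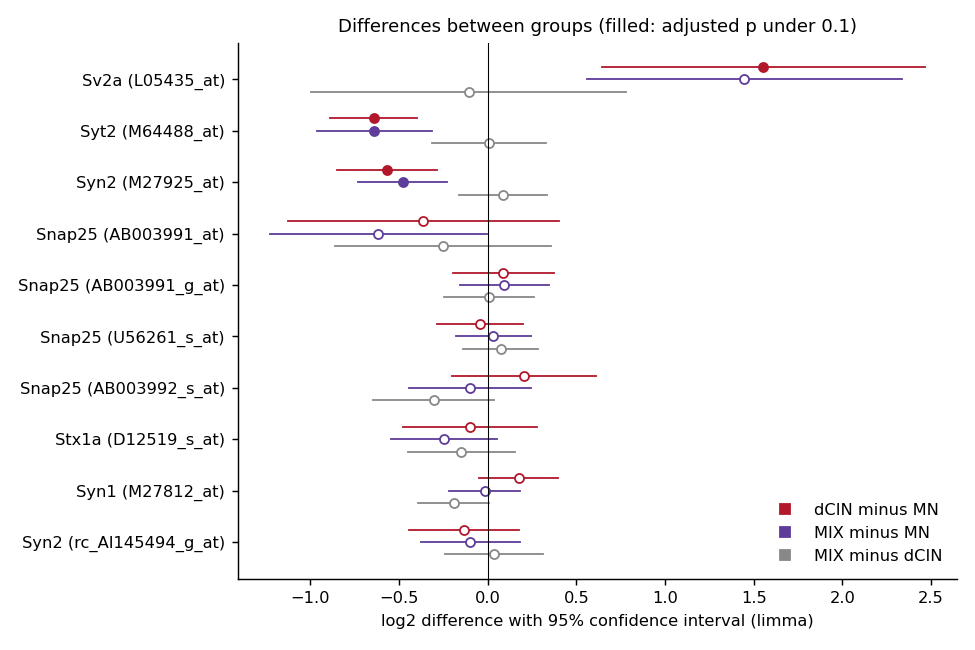
Log2 differences between groups for the 10 member probe sets with 95% confidence intervals from limma, filled where the adjusted p was under 0.1. Sv2a lies to the right (1.55 for dCIN minus MN), Syt2 (-0.64) and Syn2 M27925_at (-0.57) to the left, and the intervals of MIX minus dCIN include 0 for all 10.

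The wider vesicle cycle was read from a list of 118 genes, of which 29 were measured by 39 probe sets. Beyond the members it held 29 probe sets of 23 genes, among them further synaptotagmins, syntaxins, Sv2c, Syp and Rab3a. None of these 29 was called by limma in any comparison. Those with an unadjusted p under 0.05 numbered 0 for dCIN minus MN, 2 for MIX minus MN and 2 for MIX minus dCIN. Between dCINs and MNs, 8 of them lay above 0 and 21 below, with a median log2 difference of -0.07. Over all 1050 probe sets, 452 lay above 0 and 598 below, with a median of -0.03. Of the 29 sets, Syt5, a synaptotagmin, had the smallest p between dCINs and MNs, with a log2 difference of -0.39 (limma adjusted p = 0.569). For MIX minus MN it had -0.52 (limma adjusted p = 0.412). It was called between dCINs and MNs only with arrays 1 and 2 or the beta-actin ratio as a covariate. Syt7, a calcium sensor of slow release, had 0.19 for MIX minus MN (limma adjusted p = 0.412) and 0.17 for MIX minus dCIN (adjusted p = 0.679). Synj2, a phosphatase of vesicle recycling, had -0.32 for MIX minus dCIN (limma adjusted p = 0.541).

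Loading of vesicles was represented by the transporters Slc32a1, Slc18a3 and Slc18a2. AF030253_at of Slc32a1, the transporter for GABA and glycine, was higher in dCINs than in MNs by 2.40 on the log2 scale (limma adjusted p = 0.0027) and higher in MIX than in MNs by 2.01 (adjusted p = 0.0047). U09211_at of Slc18a3, the transporter for acetylcholine, differed by -3.47 for dCIN minus MN (limma adjusted p = 0.0029) and by 2.80 for MIX minus dCIN (adjusted p = 0.0106). For comparison, the largest member difference was 1.55. The second sets of these genes were not called. X80395cds_s_at of Slc18a3 had -0.30 for dCIN minus MN and -0.27 for MIX minus MN. For rc_AA996551_s_at of Slc32a1, dCIN minus MN was 0.09 (limma adjusted p = 0.760), MIX minus MN 0.28 and MIX minus dCIN 0.19. Slc18a2, the monoamine transporter, had -0.21 for dCIN minus MN by L00603_at (limma adjusted p = 0.503).

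The probe sets whose log2 signals over the 22 arrays were most like those of the called members are given as a description, since arrays of 1 group share their group and arrays 1 and 2 share their deviations. For Sv2a they were Ntm (neurotrimin, Pearson r = 0.79), Mapt (the microtubule protein tau, 0.78) and Penk (proenkephalin, 0.78). After the group means were taken out, the values were 0.64, 0.85 and 0.66. For Syn2 M27925_at they were Tagln3 (0.81), Calcb (0.75) and Rack1 (0.74), with 0.63, 0.40 and 0.71 once group means were removed. For Syt2 they were Tgfb3 (0.77) and the receptor subunits Gria4 (0.73) and Gabrg3 (0.72), with 0.58, 0.65 and 0.56 once group means were removed. Syn2 and Syt2 correlated with each other at 0.70, and Sv2a with them at -0.68 and -0.66. With the group means removed these 3 values were 0.35, -0.38 and -0.38.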

How the data were processed

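RNA of laser microdissected cells was amplified in 2 rounds and hybridized to RN_U34 arrays (7 dCIN, 7 MN and 8 MIX). To make the deposited intensity table, the authors used PM probes, global background subtraction, a quantile linear transformation, quantile projection normalization across arrays, Li-Wong summaries with the affy package and subtraction of a universal minimum. They are linear, from 1 to 8642. The number of arrays limits the precision. Of 1050 probe sets, 961 had 1 symbol, 7 several and 82 none in the platform annotation. All 10 member symbols matched current RefSeq names by gene ID.

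Signals were log2-transformed without filter or further scaling and fitted with limma 3.58.1 in R 4.3.3, over the 14 dCIN and MN arrays or, for MIX, over 22 arrays with 3 group means. Exact permutation tests were two-sided over all splits. The code was tested on simulated data. Named were all members, called probe sets of the vesicle and loading lists with the 3 uncalled of smallest p per contrast, and the 3 probe sets of other genes most correlated with each called member. The members and lists were chosen with earlier results of these data known. Alternatives changed arrays, filters, offset, normalization, priors, weights, covariates and threshold.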

Additional observations from a re-analysis of the deposited data

Results flagged for a closer look

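Of 30 groups examined (10 probe sets in 3 groups), 1 held an array far from the rest by Dixon's ratio of gap to range, and chance gives about 1 in 20. On the Snap25 set AB003991_g_at, dCIN array 7 had a signal of 54.0 and the other 6 dCIN arrays 26.7 to 33.3, a ratio of 0.687 against a limit of 0.568 on the log2 scale. That sample came from 50 cells and its log2 beta-actin ratio of 3.42 was the highest of the dCINs. Without it the Snap25 difference, dCIN minus MN, was -0.04. The part of cell number or RNA length in this value was not tested.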

How the results depend on the processing

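Of the values for single members, those of the 3 probe sets called between dCINs and MNs kept their direction under all 86 alternatives and omissions run and were not called under 9 of them, all for Sv2a (8 omissions and the adjusted permutation test, 0.188). The members called for MIX minus MN kept their direction under 59 and were not called under 33. Uncalled members changed sign, without a call, under 12 of 199 for dCIN minus MN, 12 of 236 for MIX minus MN and 32 of 295 for MIX minus dCIN. The count of members called between dCINs and MNs was 2 to 3 when any array was left out, and the count over the vesicle-cycle list was likewise 2 to 3. Both were 2 at an adjusted p under 0.05, where Sv2a was lost, and 2 when sets of mean log2 value under 6, Syn2 among them, were dropped. For MIX minus MN, where 2 members were called, the count of members and that of the vesicle-cycle list were 0 to 2 with any array left out, 3 with array weights or among arrays numbered 3 and up, where Sv2a was added, 1 with only the groups compared or when sets of mean log2 value under 6 were dropped, 0 with quantile normalization, without MN samples of over 200 cells or at an adjusted p under 0.05, and 0 with the beta-actin ratio as a covariate, chosen after seeing the data. For MIX minus dCIN both counts were 0 in every omission, and 2 members (Snap25 AB003991_at at -0.83 and Stx1a at -0.44) and 3 probe sets of the list were called once cell number was a covariate. Outside the members, 1 set of the list was called in single alternatives: Syt5 for dCIN minus MN with arrays 1 and 2 or the beta-actin ratio as a covariate, Stx8 there with array weights, Stx12 there with cell number as a covariate, and Synj2 for MIX minus dCIN with the latter. The causes were not tested. The within-array ratio of Syn1 over Syn2 was 0.68 to 0.80 with any array left out, 0.41 with an offset of 32, and 0.31 and not past the threshold with the second Syn2 set.

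With the array number as a block, 3 members were called for dCIN minus MN, 1 for MIX minus MN (Syt2, with Syn2 lost) and 0 for MIX minus dCIN, and the list gave 3, 1 and 0. Same-numbered dCIN and MN arrays deviated together with correlations of -0.19 to 0.53, above 0.1 for 5 of 7 numbers, and 2 of 7 dCIN arrays correlated best with the MN array of their own number. Not every pair passed 0.1 and the labels name no shared animal, litter or day, so the numbers were not used to pair arrays. Arrays 1 and 2 nevertheless share low beta-actin ratios, and whether they form a batch was not tested.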
